A study of Mus musculus with 16 samples.

Results

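The histone mark H3K27me3, trimethylated lysine 27 of histone H3, was compared with EZH2, the enzyme that writes it, in untreated mouse macrophages. The members were all peaks of both lists on chromosomes 1 to 19 and X: 9581 EZH2 peaks and 88037 H3K27me3 peaks, 97618 of the 367397 peaks in the 9 lists of the series. No measured value was used to choose them. The questions were how EZH2 summits sit inside stretches of the mark, how the width of a stretch relates to its number of EZH2 peaks, and which share of the mark has no EZH2 peak.

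EZH2 is the catalytic subunit of Polycomb repressive complex PRC2, which also holds EED and SUZ12. PRC2 adds methyl groups to lysine 27 of histone H3, EED binds the finished mark, and this lets the complex extend the mark from a site of recruitment over neighbouring nucleosomes. In mammals PRC2 is found mainly at unmethylated CpG islands of silent developmental genes, and in differentiated cells such as macrophages the mark covers genes of other lineages.

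Chromatin immunoprecipitation with sequencing (ChIP-seq) was done on primary macrophages, obtained by culturing C57BL/6 bone marrow with M-CSF, which drives this lineage, over 5 days. The series has 16 samples: 9 immunoprecipitations, for which peak lists were deposited, and 7 inputs. The EZH2, H3K27me3, H3K27ac and p53 libraries used here came from untreated wild-type cells. A second EZH2 library came from wild-type cells primed with LPS and then given nigericin, a potassium ionophore that switches on the NLRP3 inflammasome, and 4 SIRT1 libraries came from untreated Ezh2 wild-type, Ezh2 knock out, p53 wild-type and p53 knock out cells. Each group had 1 library (n = 1), so no value has a replicate error, no p-value is given, and every Wilson 95% interval covers counting error only. The labels do not say how many animals were pooled or how the knock outs were made. Of 10 macrophage marker genes, all 10 had an H3K27ac peak, the mark of active chromatin, at a gene end and 0 had H3K27me3. Of 8 neutrophil, 5 stroma and 5 erythroid markers 0 had H3K27ac, and of 7 lymphocyte markers 2 had it, against 26.6% of all protein-coding genes. In longer lists 4 of 13 stroma and endothelium genes, 1 of 12 erythroid and megakaryocyte genes and 3 of 22 lymphoid genes had it.

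The lists differ in how far down they reach. All 88037 H3K27me3 peaks had a q-value of at most 0.05, the expected share of false peaks, against 1731 of the 9581 EZH2 peaks. The fragments stacked at a summit, solved from the deposited fold enrichment and p-value, numbered 7 at the lowest, 10 at the median and 126 at the highest EZH2 peak, and 9, 14 and 214 for H3K27me3. A site without an EZH2 peak is therefore a site where none was called at this depth, not one shown to lack the enzyme.

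The lists also differ on the sex chromosomes. Chromosome X held 23495 of the H3K27me3 peaks (26.7%), against 124 of the EZH2 peaks (1.29%) and 0.634% to 1.93% in the other 7 lists. Chromosome Y, which was not among the chromosomes compared, held 0 H3K27me3 peaks and 190 EZH2 peaks. An H3K27ac peak of 3.67-fold lay at Xist, the RNA that coats an inactive X, where the other lists had none. The labels give no sex, and the EZH2 and H3K27me3 libraries carry different series of library codes and inputs of their own. Whether the libraries come from animals of the same sex was not tested, so the main shares are given with and without X. Results by EZH2 strength, distances, summits per domain and gene lists include X unless chromosomes are named.

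H3K27me3 peaks with gaps of at most 1 kb between them were joined into domains. This gave 47162 domains over 147 Mb, of which 84.7% lay in the deposited peaks themselves. Of these, 35672 domains with 111 Mb were on chromosomes 1 to 19, and 11490 domains with 35.6 Mb were on X.

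**Figure D1:**
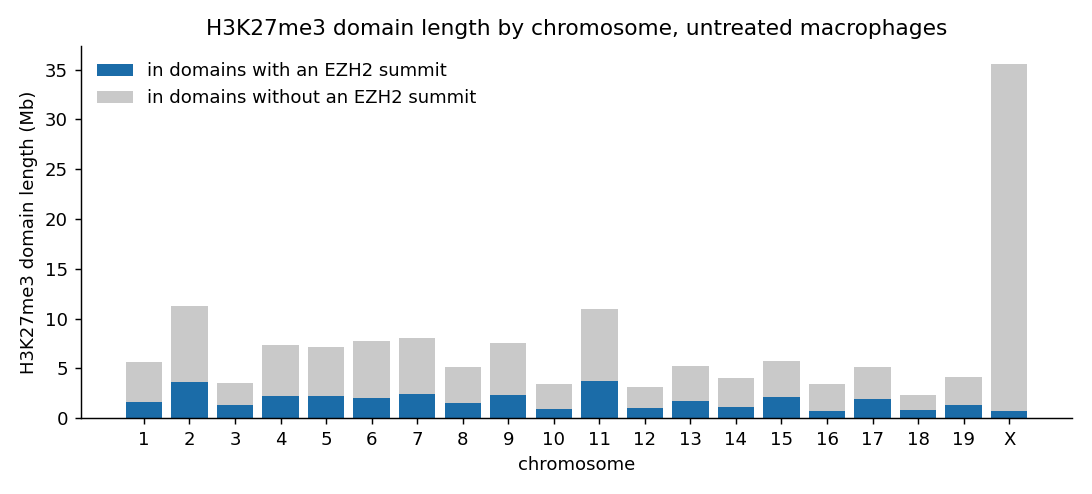
Length of H3K27me3 domains in Mb (vertical axis) on each chromosome (horizontal axis) in untreated macrophages, 1 library per list. Blue is length in domains with at least 1 EZH2 summit and grey is length in domains without; X stands at 35.6 Mb, 98% of it without EZH2, and chromosomes 1 to 19 at 2.35 to 11.3 Mb each.

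Starts of genes under both kinds of domain show what the sequence looks like where the enzyme was and was not called. Windows of 300 bases, from 250 before to 50 after the RefSeq start (GRCm38.p6), were taken from domains of 10 kb or more, chromosomes 8 and 18 not searched. The first 4 are those with the EZH2 summit of highest fold inside the window, and the other 4 have the highest H3K27me3 fold at the start among domains without an EZH2 summit, 1 per domain. Capitals mark CpG dinucleotides, the letters CG, read 5′ to 3′ on the strand of the gene.
Col8a2, chr4:126286544-126286843, + strand: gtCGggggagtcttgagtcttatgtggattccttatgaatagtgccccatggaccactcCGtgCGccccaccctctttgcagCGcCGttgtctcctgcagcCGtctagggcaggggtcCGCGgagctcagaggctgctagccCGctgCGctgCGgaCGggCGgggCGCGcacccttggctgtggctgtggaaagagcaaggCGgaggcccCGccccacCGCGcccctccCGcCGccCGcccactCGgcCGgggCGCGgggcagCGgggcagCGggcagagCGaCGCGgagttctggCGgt
Ttc9, chr12:81630999-81631298, + strand: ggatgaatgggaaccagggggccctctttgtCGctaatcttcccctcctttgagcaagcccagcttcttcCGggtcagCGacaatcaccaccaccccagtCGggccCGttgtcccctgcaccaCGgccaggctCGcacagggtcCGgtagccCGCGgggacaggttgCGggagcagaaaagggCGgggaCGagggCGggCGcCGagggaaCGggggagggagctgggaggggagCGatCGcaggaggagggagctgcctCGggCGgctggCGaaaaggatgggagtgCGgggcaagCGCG
Fgf18, chr11:33147351-33147650, - strand: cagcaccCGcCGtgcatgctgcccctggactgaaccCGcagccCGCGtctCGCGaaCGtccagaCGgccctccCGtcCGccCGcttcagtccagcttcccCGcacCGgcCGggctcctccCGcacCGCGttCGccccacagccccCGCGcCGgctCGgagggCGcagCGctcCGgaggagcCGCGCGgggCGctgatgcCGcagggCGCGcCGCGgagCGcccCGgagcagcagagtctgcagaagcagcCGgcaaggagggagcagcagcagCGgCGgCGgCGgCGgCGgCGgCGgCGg
Kif1a, chr1:93101825-93102124, - strand: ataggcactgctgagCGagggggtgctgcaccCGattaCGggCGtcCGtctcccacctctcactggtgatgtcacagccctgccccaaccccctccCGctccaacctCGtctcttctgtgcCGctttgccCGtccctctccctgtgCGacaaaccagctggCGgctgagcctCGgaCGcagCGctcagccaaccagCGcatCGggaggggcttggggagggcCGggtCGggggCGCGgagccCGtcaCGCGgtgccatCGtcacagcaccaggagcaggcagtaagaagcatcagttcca
Mucl3, chr17:35643646-35643945, - strand: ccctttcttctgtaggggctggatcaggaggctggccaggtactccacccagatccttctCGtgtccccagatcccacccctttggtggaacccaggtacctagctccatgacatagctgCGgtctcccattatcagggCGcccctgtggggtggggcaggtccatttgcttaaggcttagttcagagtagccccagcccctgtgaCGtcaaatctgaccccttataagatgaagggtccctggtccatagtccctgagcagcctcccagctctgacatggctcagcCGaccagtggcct
Hmcn2, chr2:31314082-31314381, + strand: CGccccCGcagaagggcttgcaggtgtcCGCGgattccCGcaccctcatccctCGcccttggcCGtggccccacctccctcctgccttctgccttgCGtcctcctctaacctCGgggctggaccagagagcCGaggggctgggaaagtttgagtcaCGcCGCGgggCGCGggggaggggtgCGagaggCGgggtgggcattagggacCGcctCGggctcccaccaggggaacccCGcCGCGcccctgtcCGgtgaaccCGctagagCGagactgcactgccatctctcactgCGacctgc
Alox12b, chr11:69156822-69157121, + strand: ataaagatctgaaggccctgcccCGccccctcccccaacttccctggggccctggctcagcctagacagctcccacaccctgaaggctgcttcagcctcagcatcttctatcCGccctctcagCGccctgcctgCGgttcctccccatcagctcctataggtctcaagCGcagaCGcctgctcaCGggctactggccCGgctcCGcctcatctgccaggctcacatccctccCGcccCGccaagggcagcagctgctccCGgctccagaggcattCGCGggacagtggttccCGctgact
Kcnk4, chr19:6934466-6934765, - strand: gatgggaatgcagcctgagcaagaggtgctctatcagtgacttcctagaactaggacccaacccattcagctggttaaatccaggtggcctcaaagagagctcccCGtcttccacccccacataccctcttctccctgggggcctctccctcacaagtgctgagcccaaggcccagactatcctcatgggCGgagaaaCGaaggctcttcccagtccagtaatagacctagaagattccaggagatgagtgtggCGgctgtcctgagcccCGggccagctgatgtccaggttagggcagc

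The window of Col8a2, a collagen gene, held 32 CpG and an EZH2 peak of 6.23-fold in a 24.4 kb domain. That of Ttc9 held 25 CpG with EZH2 at 5.94-fold, that of the growth factor gene Fgf18 held 47 with 5.89-fold, and that of the axonal motor gene Kif1a held 24 with 5.74-fold. The 4 windows without EZH2, chosen for their mark, had it at 11.2-fold to 12.6-fold against 5.44-fold to 9.4-fold in the first 4, and mostly fewer CpG. Mucl3 and the potassium channel gene Kcnk4 held 5 each, Alox12b, a lipoxygenase gene of skin, held 15, and Hmcn2 held 26. Hmcn2 therefore lies in the range of the 4 windows with EZH2.

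EZH2 sat in only part of the mark. Of 47162 domains, 2046 held an EZH2 summit (4.34%, Wilson 95% interval 4.16 to 4.53), and these made up 35.7 of the 147 Mb. The other 75.7% of the length, 111 Mb, lay in domains without one. On chromosomes 1 to 19 alone, 2019 of 35672 domains held EZH2 (5.66%, 5.42 to 5.9) and 68.6% of the length had none. On X, 27 of 11490 domains held EZH2 (0.235%, 0.162 to 0.342) and 98% of the length had none. Between the autosomes, the length without EZH2 ran from 62.3% on chromosome 15 to 78.9% on chromosome 16, so X lay outside their range.

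Seen from the enzyme, 3995 of 9581 EZH2 summits lay inside a domain (41.7%, 40.7 to 42.7), and 41.9% on chromosomes 1 to 19. The share followed the strength of the EZH2 peak. Among the 6070 peaks with −log10 q under 0.5 it was 27.9%, and among the 1780 from 0.5 to 1.3 it was 46%. It was 77.5% of 959 peaks from 1.3 to 3, 94.5% of 397 from 3 to 5, 98.9% of 278 from 5 to 10, and 95.9% of the 97 above 10. The weak end of the list holds most of the peaks and most of those outside the mark: 4379 of the 5586 outside summits had −log10 q under 0.5. By chromosome, the share inside ran from 28.8% on chromosome 14 to 59.3% on chromosome 11, with 29% (21.8 to 37.6) on X.

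EZH2 summits outside the mark were mostly far from it. Their median distance to the nearest domain was 206692 bp, and 4177 of 5586 (74.8%) were over 50 kb away. For those with q of at most 0.05 this share was 69.8%, and at −log10 q of at least 5 it was only 2 of 7. Within 1 kb of a domain lay 204 of all 5586. The outside summits were also far from genes, with a median distance to a RefSeq start of 45940 bp. Within 1 kb of a start lay 2.56% (2.17 to 3.01) of 5401, against 31.1% (29.6 to 32.5) of 3891 summits inside domains. Gene starts on chromosome 18 were not used here, in this and all other results on starts. An H3K27ac peak overlapped 3.33% (2.89 to 3.83) of the outside EZH2 peaks and 0.651% (0.445 to 0.952) of the inside ones. For EZH2 peaks with q of at most 0.05 it overlapped 1.22% (0.417 to 3.54) outside and 0.471% (0.228 to 0.969) inside. The intervals overlapped at that limit, so the contrast was clear only with the weaker peaks included.

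A few strong EZH2 peaks, ranked here by fold, had their summits outside the mark. The highest, 8.31-fold at chr19:5845395-5846324, lay at an end of Neat1, a nuclear long non-coding RNA gene. That peak was 94512 bp from the nearest domain and under H3K27ac. Next was Bmi1, which encodes a subunit of the other Polycomb complex, PRC1, at 7.31-fold. Its summit was only 16 bp from the edge of a domain of 2.43 kb, and the EZH2 peak itself overlapped that domain. This peak was also under H3K27ac. The third, 6.26-fold, lay within Nlrp3, the inflammasome sensor gene, 21601 bp from a domain and under H3K27ac. The other 7 of the 10 of highest fold had no H3K27ac. They lay at Ahnak and Pramel33 (4.81-fold each), Zfp729b (4.44), Slc30a4 (4.3) and Ralgps2 (4.28), or between genes. The latter, nearest to Col19a1 (5.25) and Sfi1 (4.28), were 26597 and 29769 bp from those genes. Of these 7, the Ralgps2 peak was 1278 bp from a domain and the rest at least 16145 bp away. Ranks by q-value differ: the peak nearest to Col19a1 had a −log10 q of 34.2, against 20 at Neat1 and 28.6 at Lbx1 inside the mark.

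Inside domains, EZH2 lay away from the edges. Over the 2019 autosomal domains that hold EZH2, 2630 of 3959 summits (66.4%, 64.9 to 67.9) fell in the middle 50% of the domain's length, and 8.64% in the outermost 10% on either side, both sides counted. For EZH2 peaks with q of at most 0.05 the middle share was 70.7% (68.4 to 73). In domains of 10 kb or more it was 66.9% (65.2 to 68.6), so the pattern was not limited to narrow domains. In the same domains the EZH2 library of nigericin-treated cells gave 70.8% (69 to 72.7) of 2319 summits.

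Gene starts and the highest point of the mark also lay centrally in these domains. RefSeq gene starts fell in the middle 50% in 69.5% (67.5 to 71.5) of 2018 cases, and the highest H3K27me3 summit of each domain in 70% (68 to 72) of 2019. All H3K27me3 summits together gave 38.7% (37.7 to 39.8) of 8480, with 33.9% in the outermost 10% on either side. The 4 SIRT1 lists gave 50.2% to 52%, where an even spread gives 50%. H3K27ac gave 34.2% (26.2 to 43.2) of 117 summits, and p53 had only 25 summits in these domains, 11 of them in the middle. Domain bounds come from the mark itself, so the places of the highest and of all mark summits are partly set by how domains are drawn. A domain joined from several peaks has a peak at each end by construction.

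**Figure D2:**
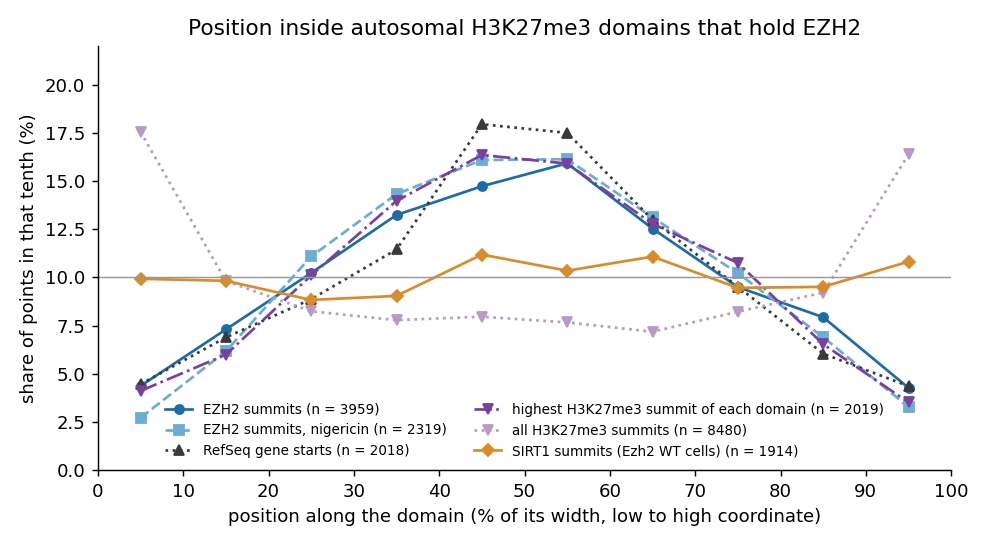
Share of points (vertical axis, %) in each 10% of the domain's length (horizontal axis, %) over the 2019 autosomal domains that hold EZH2; the grey line marks an even spread at 10%. EZH2 summits of both treatments, gene starts and the highest mark summit peak in the middle, and SIRT1 is near even. All H3K27me3 summits are most frequent at the ends, where a domain joined from several peaks has a peak by construction.

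The distances gave the same picture. The median inside EZH2 summit was 1002 bp (quartiles 339 to 2297) from the nearest H3K27me3 summit, 5105 bp (2460 to 10343) from the nearest domain edge and 2945 bp (718 to 15398) from the nearest gene start. From the highest point of the mark in its domain the median summit was 1856 bp away (642 to 5446), with 33.5% (32 to 34.9) within 1 kb. In the 1207 domains with only 1 EZH2 summit, that summit lay a median 904 bp (312 to 1978) from the highest point of the mark. Where a domain held several EZH2 summits, neighbours were a median 2105 bp apart. The highest mark summit was 2699 bp from a gene start at the median in domains with EZH2 and 17592 bp in those without, on chromosomes 1 to 17 and 19.

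The EZH2 peaks of highest fold inside domains show how enzyme and mark are arranged at single genes. At Foxd3, a neural crest transcription factor gene, the EZH2 summit (7.83-fold) lay at 52.4% of the way along a 19.9 kb domain and 717 bp from its highest mark. At Foxi3, a factor of the ear and ectoderm, the only EZH2 summit of an 18.9 kb domain (8.2-fold) was 573 bp from the highest mark. At Rims2, a synaptic vesicle gene, the summit (8.29-fold) was 231 bp from it in a 10.7 kb domain. At Foxa2, an endoderm factor gene, and Dmrta2, a cortex patterning gene, the distances were 1191 and 1227 bp, and at the endoderm factor gene Gata6 the distance was 1783 bp.

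In 4 of the 10 inside peaks of highest fold the EZH2 summit was far from the highest mark summit of the domain. The mark was still high nearby. H3K27me3 peaks of 7.51-fold, 11.4-fold and 10.1-fold came within 1 kb of an end of Lbx1, Hoxc9 and Sox21. At Lbx1, a muscle precursor factor gene with the EZH2 peak of highest fold in the list (9.37-fold), the highest mark of the 63.8 kb domain, 8.15-fold, was 24227 bp away. At Hoxc9 (8.55-fold) it was 154974 bp away within the 251 kb HoxC domain, at Sox21, a neural factor gene, 10572 bp in 29 kb, and at Erfl 10078 bp in 30.3 kb. These 4 domains held 59, 8, 4 and 4 EZH2 summits in the order Hoxc9, Lbx1, Sox21 and Erfl.

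Wide domains held EZH2 more often. Domains with EZH2 had a median width of 11424 bp (quartiles 6294 to 20892) and those without 864 bp (454 to 2433), a ratio of 13.2 and of 14.3 on chromosomes 1 to 19. On these chromosomes 0.224% (0.166 to 0.302) of the 18763 domains under 1 kb held EZH2. The share was 0.966% at 1 to 2 kb, 4.26% at 2 to 5 kb, 18.6% at 5 to 10 kb, 37.4% at 10 to 20 kb and 57.8% at 20 to 50 kb. It reached 80.2% (72.3 to 86.2) of the 126 domains over 50 kb.

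A wider domain offers more sequence, so summits were also counted per Mb. On chromosomes 1 to 19 the density rose from 4.33 per Mb of domain in the narrowest class to 15.4 at 2 to 5 kb, 36.2 at 5 to 10 kb and 48.3 at 10 to 20 kb. It then levelled, at 56 per Mb for 20 to 50 kb and 53.5 for over 50 kb. Wider domains also had a higher mark, and in domains of high mark the density fell with width. At a highest fold of 6 to 8 it was 89.9 per Mb at 1 to 2 kb, 77.9 at 2 to 5 kb, 61.6 at 5 to 10 kb, 44.6 at 10 to 20 kb, 29.9 at 20 to 50 kb and 12.6 over 50 kb. At 8 or more it went from 180 per Mb at 2 to 5 kb to 56.8 over 50 kb. Some end classes were small: 21 domains at 1 to 2 kb and 13 over 50 kb for 6 to 8, and 11 at 2 to 5 kb for 8 or more. At 5 to 6 the density rose from 12.4 per Mb at 1 to 2 kb to 32.9 at 5 to 10 kb and was 13.8 at 20 to 50 kb. At 4 to 5 it was 8.36 under 1 kb, 14.9 at 5 to 10 kb and 12 at 10 to 20 kb. At 3 to 4 it was 4.81 under 1 kb and 9.57 at 5 to 10 kb. The nigericin EZH2 library gave shares of 0.0959%, 0.286%, 2.11%, 9.34%, 26.7%, 48.7% and 68.3% of domains over the same 7 classes, lower in each class and in the same order. On X the share stayed low in every class, from 0.0551% under 1 kb to 9.09% (3.59 to 21.2) of the 44 domains over 50 kb.

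**Figure D3:**
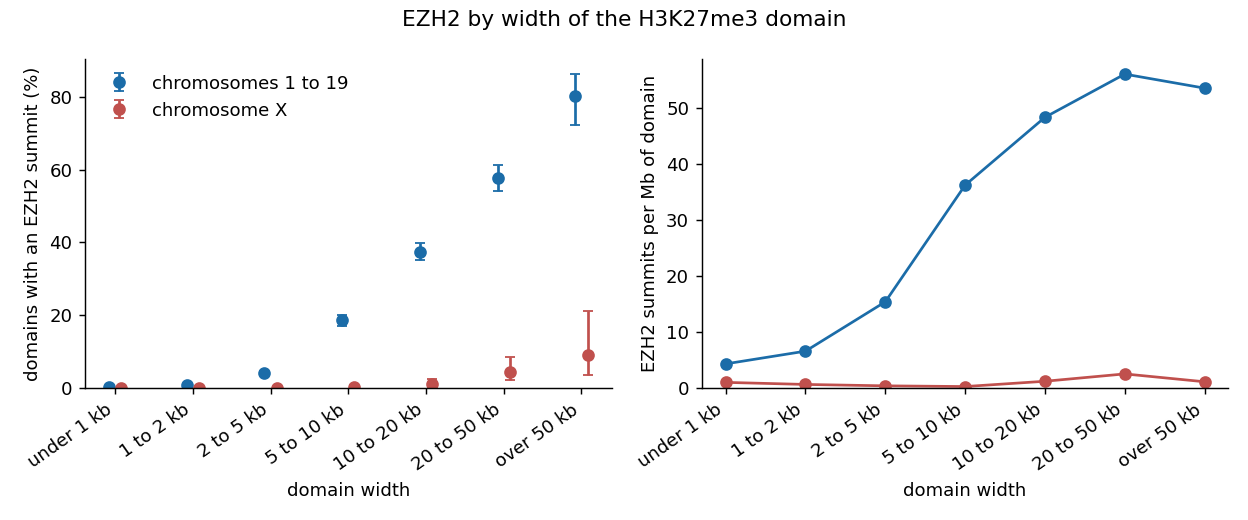
Share of H3K27me3 domains with an EZH2 summit (left, %, with Wilson 95% intervals) and EZH2 summits per Mb of domain (right) by class of domain width. Blue is chromosomes 1 to 19 and red is X; the autosomal share rises from 0.224% to 80.2%, the density levels above 20 kb, and X stays at or under 9.09% in all classes.

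The number of summits rose with width as well. On chromosomes 1 to 19, over the 2019 domains with EZH2, Spearman's rho between width and number of summits was 0.471, across domains of 1 pair of libraries and as a description only. Over all chromosomes, 1 summit was found in 1207 domains (median width 8620 bp), 2 in 446 (12916 bp), 3 to 4 in 261 (19054 bp), 5 to 9 in 113 (34897 bp) and 10 to 19 in 14 (49920 bp). The 5 domains with 20 or more had a median of 132086 bp and held 175 summits, 4.38% of those inside.

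The height of the mark went with EZH2 at least as closely as width. The highest mark fold of a domain was 7.16 at the median with EZH2 and 3.46 without, and its rho with the number of summits was 0.48. Width and height themselves had a rho of 0.73 over these domains. On chromosomes 1 to 19 EZH2 was found in 0.279% of domains whose highest fold was under 3, 0.811% at 3 to 4, 3.71% at 4 to 5, 13.8% at 5 to 6, 34.1% at 6 to 8 and 73.9% (71.1 to 76.5) at 8 or more.

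Held at 1 width, the height still made a difference. In domains of 10 to 20 kb the share with EZH2 was 4 of 17 (23.5%, 9.56 to 47.3) at a highest fold of 3 to 4, 13.4% (9.27 to 19.1) at 4 to 5, 19.7% at 5 to 6, 36.6% at 6 to 8 and 73.1% (68.2 to 77.5) at 8 or more. Held at 1 height, the share also went up with width, but little above 5 kb at folds of 5 to 8. At a fold of 6 to 8 the share was 22.3% (17.1 to 28.5) at 2 to 5 kb, 33.3% (29.8 to 37) at 5 to 10 kb, 36.6% at 10 to 20 kb and 41.5% (35.6 to 47.7) at 20 to 50 kb. Over 50 kb it was 5 of 13 (38.5%, 17.7 to 64.5), and from 5 kb upwards the intervals overlapped. At 5 to 6 the share was 18% at 5 to 10 kb, 19.7% at 10 to 20 kb and 21.4% at 20 to 50 kb. At 8 or more it was 54.5% (28 to 78.7) of 11 domains at 2 to 5 kb, 62.1% (53.3 to 70.2) at 5 to 10 kb, 73.1% at 10 to 20 kb, 75.6% at 20 to 50 kb and 85% (77.2 to 90.4) over 50 kb. On X, where 25 domains reached a fold of 8 or more, 5 of them held EZH2 (20%, 8.86 to 39.1), below the 73.9% of autosomal domains of that height.

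**Figure D4:**
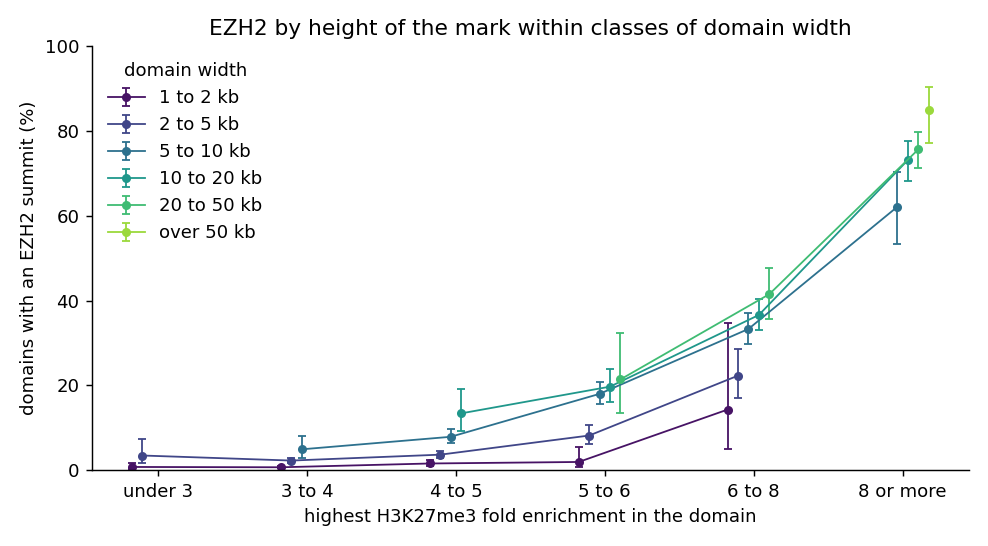
Share of autosomal H3K27me3 domains with an EZH2 summit (vertical axis, %, Wilson 95% intervals) by the highest mark fold in the domain (horizontal axis), with 1 line per width class from 1 to 2 kb upwards and points of at least 20 domains. The lines drawn climb from a fold of 4 upwards, the class under 1 kb (not drawn) stayed at or under 0.519%, and the lines for widths of 5 to 50 kb run close together at folds of 5 to 8.

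The domains with the most EZH2 were the Hox clusters and a ribosomal RNA repeat. The HoxC domain, chr15:102893792-103145171, was the widest of the genome that holds EZH2, at 251 kb, and had 59 summits, with a strongest EZH2 fold of 8.55. The HoxD domain (132 kb) had 30, the HoxB domain (182 kb) 24 and the HoxA domain (98.1 kb) 20. Hox genes encode the transcription factors that set position along the body axis. The nigericin library gave 47, 27, 26 and 21 summits in the same 4 domains, and the p53 list 1, 0, 0 and 0. The 4 SIRT1 lists gave 5 to 13 in HoxC, 1 to 2 in HoxD, 1 to 9 in HoxB and 2 to 6 in HoxA.

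The second most summits, 42, lay in a 95.3 kb domain at chr8:123535006-123630280, which holds 50 annotated ribosomal RNA genes. Its mark reached 23.3-fold and its strongest EZH2 peak 4.61-fold. The SIRT1 lists had 13 to 23 summits there, and the nigericin EZH2 list 14. Repeat copies are nearly identical, so reads there cannot be placed with certainty, and how the authors treated such reads is not given in the sources used here. Further down were Rhcg, an ammonium transporter gene (16 summits in 124 kb), a 105 kb domain on chromosome 3 without a named protein-coding gene (16), the heart and gut factor gene Gata4 (14 in 82.9 kb), the Zic2 and Zic5 genes of brain patterning (13 in 48 kb) and the histocompatibility gene H2-T3 (12 in 106 kb).

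Width alone did not bring many summits. A 203 kb domain over H2-Q6, Cdsn and Cchcr1 on chromosome 17 had 3, and a 184 kb domain on the same chromosome without a named gene had 1. The domain over Lhx1, a kidney and head organiser factor gene, was also 203 kb and had 8. Domains over Cdh22 and Cd40 (181 kb), Pitx1 and Catsper3 (173 kb), Bcar1, Cfdp1 and Ctrb1 (170 kb) and Lifr and Egflam (141 kb) had 2 to 4. Per Mb these domains carried 5.45 to 39.3 summits, against 132 to 235 in the 4 Hox domains.

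Many broad domains had no EZH2 peak at all. Of the domains of 10 kb or more, 2030 of 3176 had none (63.9%, 62.2 to 65.6), 1344 of 2473 on chromosomes 1 to 19 (54.3%, 52.4 to 56.3) and 686 of 703 on X (97.6%, 96.2 to 98.5). The widest was a 224 kb domain at chr7:132290449-132513999 over Chst15, a chondroitin sulfotransferase gene, whose mark reached 12.8-fold. Next on the autosomes were 125 kb over Otof, an inner-ear vesicle gene, with Cib4 and Fam166c, and 113 kb over Lmtk2 and Ocm. Skap1, a T cell adaptor gene (71.1 kb), the calcium channel gene Cacna1i (69.9 kb) and Adgrl3, an adhesion receptor gene of neurons (69.2 kb), followed after 3 domains on chromosome 9 without a named gene. On X the widest lay over Zfx (158 kb), Rlim, a ubiquitin ligase gene with a role in X inactivation (120 kb), Klhl15 (119 kb) and Nhsl2 (114 kb).

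A high mark was no guarantee of a called EZH2 peak either. The highest mark without one, 13.1-fold, was in a 47.2 kb domain over Wnt8a, a signal of the early embryo, and Fam13b. After Chst15 came Mucl3, Vars2 and Sfta2 (12.6-fold, 66.1 kb), Lmtk2 and Ocm (12.6-fold), Hmcn2 (11.9-fold, 18.4 kb), Ccdc162 (11.8-fold, 34.4 kb), Runx3, a factor of T cell fate (11.6-fold, 22.8 kb), and the skin lipoxygenases Alox12b and Aloxe3 (11.4-fold, 20.1 kb). Nigericin-treated cells had 2 EZH2 summits each in the Wnt8a and Runx3 domains and 1 each in those of Chst15 and Lmtk2. They had 0 in the domains of Mucl3, Hmcn2, Ccdc162 and Alox12b.

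The second EZH2 library had few peaks in the broad domains that lacked EZH2 in untreated cells. On chromosomes 1 to 19 it had a summit in 764 of the 1129 wide domains with untreated EZH2 (67.7%) and in 111 of the 1344 without (8.26%). In the 4 SIRT1 lists these shares were 28.5% to 64.5% and 20.1% to 56%. H3K27ac peaks overlapped 3.9% (2.92 to 5.19) of the wide autosomal domains with EZH2 and 7.66% (6.36 to 9.21) of those without. Of all summits on chromosomes 1 to 19, 52.8% of nigericin EZH2, 7.33% to 9.19% of SIRT1, 2.23% of H3K27ac and 2.01% of p53 lay in a domain. These lists differ in length and threshold, so their shares are set side by side only.

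Marked gene starts with EZH2 were richer in CpG than marked starts without it. On chromosomes 1 to 17 and 19 there were 31396 starts of 25748 genes, so some starts share a gene. The 1272 starts in a domain with an EZH2 summit within 1 kb had a median of 21 CpG (quartiles 12 to 31) in their 300-base window and 64.7% G and C. The 752 starts with EZH2 only elsewhere in their domain had 8.5 (4 to 18) and 56%, and the 2617 in domains without EZH2 had 7 (4 to 17) and 55%. The 26581 starts outside the mark and without EZH2 also had 7 (3 to 20). The 174 starts outside the mark with EZH2 within 1 kb had a median of 6 (2 to 22.8). In domains of 10 kb or more the medians were 21, 8 and 6 in the same order, and the quartiles with and without EZH2 overlapped.

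The share of marked starts with EZH2 within 1 kb climbed with each class of CpG count. It was 6.85% (5.53 to 8.45) of starts with 0 to 4 CpG, 12.5% with 5 to 9, 33.3% with 10 to 19, 44.6% with 20 to 29 and 57.9% (54 to 61.6) with 30 or more. Outside domains it was 0.273% to 1.08% in the 5 classes. The climb was present within each of the broad classes of mark height used, inside which height was not held fixed. Under H3K27me3 peaks of 4-fold to 6-fold the share ran from 4.43% (2.75 to 7.08) to 47.8% (39.7 to 56.1). Under peaks of 6-fold or more it ran from 16.2% (12.6 to 20.7) to 70.1% (64.8 to 74.9). ChIP-seq recovers DNA unevenly by base composition, and the part of that in these shares was not tested.

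**Figure D5:**
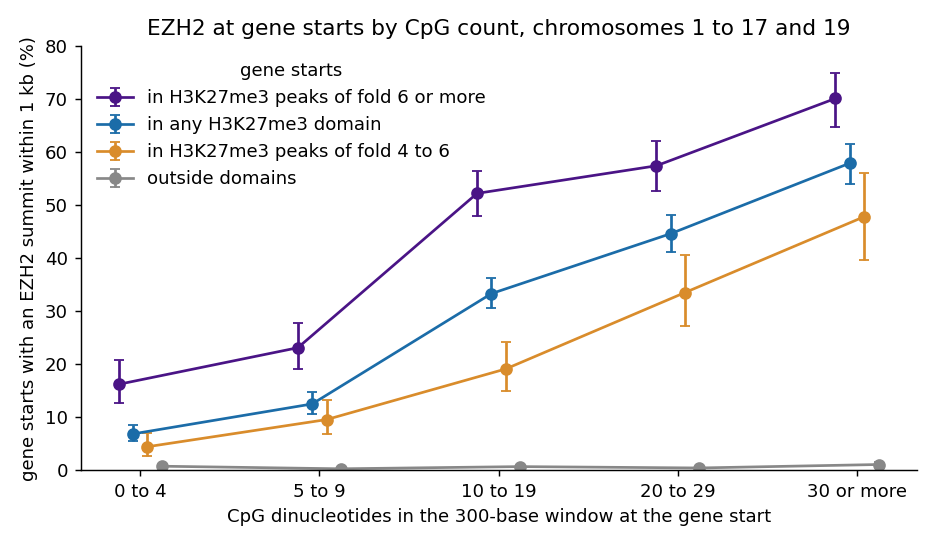
Share of gene starts on chromosomes 1 to 17 and 19 with an EZH2 summit within 1 kb (vertical axis, %, Wilson 95% intervals) by the number of CpG in the 300-base window at the start (horizontal axis). Among marked starts the share climbs from 6.85% to 57.9%. It climbs under H3K27me3 peaks of 4-fold to 6-fold and of 6-fold or more, and outside domains (grey) it stays at or under 1.08%.

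Whole domains were divided in the same way. Among domains of 10 kb or more on chromosomes 1 to 17 and 19, EZH2 was found in 27.7% (25.2 to 30.3) of the 1164 without a gene start and in 35.3% (30.9 to 40) of the 425 whose richest start had under 10 CpG. It was found in 65.9% (60 to 71.3) of the 267 with a start of 10 to 19 CpG and in 80.4% (76.9 to 83.5) of the 566 with 20 or more. The median of the highest mark fold in the 4 groups was 6.45, 6.92, 7.95 and 8.18, so height moved with CpG here. At 20 to 50 kb the shares were 38.3%, 40.6%, 72.9% and 89.1%. Mucl3 and Hmcn2, printed above, are marked starts without EZH2 at the low and the high end of CpG count.

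At genes, a peak was counted where it came within 1 kb of either end of one of 21631 protein-coding genes. H3K27me3 was at 25.7% of them, EZH2 at 7.59% and H3K27ac at 26.6%. Of the 5560 genes with H3K27me3, 1470 also had EZH2, or 26.4%, and gene groups differed widely around that share. EZH2 peaks of any q-value count here, so weak ones are included, such as those at Pax5 (1.93-fold) and Fgf4 (2.02-fold). With EZH2 q of at most 0.05 the share of all marked genes was 14.4%, and the lists were not recounted at that limit. The lists below were chosen with earlier results of these data known, so their counts are descriptions.

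Nearly all Hox genes had the mark and most had the enzyme: 38 of 39 carried H3K27me3, 29 of these had EZH2 and 1 of the 39 had H3K27ac. Hoxd13, which patterns digits, had a mark of 13.6-fold and EZH2 of 5.52-fold, Hoxb13 15.6 and 3.87, Hoxb9 13.8 and 4.03, Hoxb8 13.8 and 4.51, and Hoxa9, known from blood stem cells and leukaemia, 12.2 and 6.26. The 38 marked genes shared 7 domains, so they are not independent. Hoxa4, in a 1.75 kb domain without EZH2, and Hoxb4, without the mark, were picked out after their values were seen.

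Developmental transcription factors and signals followed. All 62 developmental regulators had H3K27me3, 54 had EZH2 and 1 had H3K27ac. Gata4 had a mark of 16.6-fold and EZH2 of 3.83-fold, the homeobox gene Evx1 14.1 and 3.73, Tbx2 13.9 and 5.19, the neural gene Olig2 13.3 and 7.17, and Pax6, the eye regulator, 10.4 and 4.69. Lhx3, a pituitary factor gene, had 13.3-fold mark and no EZH2 at its ends, although its 42.8 kb domain held 3 summits. Of 28 secreted signals, 26 had the mark and 19 of these EZH2, among them Wnt1 (13.8 and 3.88), Fgf8 (12.6 and 4.37), Wnt10b (11.8 and 4.09), Wnt9b (10.6 and 3.65) and Fgf4 (10.1 and 2.02).

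Genes of mature cell types varied in how many marked members had the enzyme. Of 26 synaptic and channel genes 12 were marked and 8 had EZH2, with Slc17a7, a glutamate transporter gene, at 13.9 and 3.39 and the scaffold gene Shank2 at 14.5 with no EZH2 at its ends. Of 22 lymphoid genes 13 were marked and 3 had EZH2. The B cell factor gene Pax5 (10.9 and 1.93) and the T cell factor gene Gata3 (9.68 and 2.73) had it at their ends. Tcf7 (8.15), Ebf1 (6.92), Cd3e (5.97) and Cd4 (5.25) did not. Even so, the Ebf1 domain held 2 EZH2 summits and those of Cd3e and Cd4 held 1 each. Of 12 erythroid and megakaryocyte genes 4 were marked and 0 had EZH2 at their ends. The mark was 7.16-fold at Itga2b, whose domain held 1 EZH2 summit. It was 6.45 at the erythropoietin receptor gene Epor, 5.19 at Alas2 on X and 3.91 at Hba-a1. Of 13 stroma and endothelium genes 8 were marked and 2 had EZH2, Cxcl12 (9.88 and 3.62) and Pdgfra (9.39 and 4.04). Of 10 liver and gut genes 6 were marked and 3 had EZH2, the highest being the intestinal factor gene Cdx2 (11.9 and 3.58). Shares of marked genes with EZH2 were 0% for erythroid, 23.1% for lymphoid, 25% for stroma, 50% for liver and gut and 66.7% for synaptic and channel genes, against 26.4% of all marked genes and 87.1% of developmental regulators. These shares count EZH2 at gene ends only. No EZH2 summit lay in 3 of the 4 domains of marked erythroid genes and in 6 of 12 of lymphoid genes. It was 5 of 8 for stroma and 3 of 6 for liver and gut. For synaptic and channel genes it was 3 of 12, and for developmental regulators 6 of 61. Groups of 4 to 13 marked genes give wide counting error.

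Genes active in macrophages lay outside. Of 20 macrophage identity genes 20 had H3K27ac, and of 18 ribosomal protein genes 15 had it and 0 had H3K27me3. Tlr4, the LPS receptor gene, had a weak EZH2 peak (2.24-fold) beside H3K27ac (4.09-fold) and no mark, a member picked out after its values were seen. The only identity gene with the mark was the Fc receptor gene Fcgr3, with an H3K27me3 peak of 9.74-fold, EZH2 of 2.7 and H3K27ac of 5.23 at its ends, in a 35.1 kb domain with 5 EZH2 summits. Gene ends of neighbours can fall in the same domain.

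The Polycomb genes themselves carried the mark at 16.7% of PRC2 and 30% of PRC1 genes, near the 25.7% of all genes. Ezh2 had no peak of EZH2, H3K27me3 or H3K27ac at its ends, and Eed and Suz12 had only H3K27ac, at 3.24-fold and 2.19-fold. Of 12 PRC2 genes 2 were marked, Epop (8.46, with EZH2 at 4.42) and Rbbp7 on X (4.2, without). Of 20 PRC1 genes 6 were marked and 3 had EZH2: Cbx8 (10.7 and 5.66), Cbx2 (7.24 and 2.39) and Bmi1 (4.1 and 7.31). Of 7 inhibitors of the cell cycle 3 were marked. Cdkn2a, the senescence gene and a classic Polycomb target, had 10.9 and 2.35, and its neighbour Cdkn2b 6.36 and 2.94, both in a 48.1 kb domain with 8 EZH2 summits. Cdkn1c had 4.91 and no EZH2 at its ends.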

How the data were processed

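Peak lists of 9 ChIP-seq libraries, 1 per group, were used as deposited, with EZH2 and H3K27me3 of untreated macrophages as the members. The submitters' processing notes name MACS2, deepTools and the build GRCm38/mm10. For tool versions, aligner and read filters, nothing is given in the sources used here. Fold enrichment, as deposited, is the ratio of summit fragments to local background. The deposited −log10 columns are each peak's p-value and q-value from the authors' peak caller. From the values, the largest p-value in the EZH2 list was 0.00985, with q unlimited. Numbers of fragments at summits were back-calculated with a Poisson tail from fold and −log10 p, and a whole number matched the −log10 p to within 0.001 for 100% of peaks in both lists. Read totals were not used.

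H3K27me3 peaks were joined across gaps of at most 1 kb, and a domain held EZH2 where the summit of an EZH2 peak fell inside it. Domains of 10 kb or more are called wide. Classes of width, fold and CpG count, and the use of CpG and chromosome splits, were set with the data known. The members and gene lists were also chosen with earlier results of these data known. Gene bounds, starts and promoter windows came from RefSeq tables of GRCm38.p6, in which all listed genes were matched. With 1 library per group no test was run. Shares have Wilson 95% intervals. Functions were tested on simulated intervals.

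Genes named were those at the 10 widest domains with and without EZH2 (also on chromosomes 1 to 19 alone), at the 10 with most summits and the 10 of highest mark without EZH2 (up to 3 genes each), at the 10 highest EZH2 peaks inside and outside, up to 6 members per list of highest mark, and fixed genes. Only formal symbols were used. Genes of the printed sequences, and members said so in the text, were added after values were seen. Alternatives were the peaks as deposited, a gap of 3 kb, stricter q for either list, overlap in place of the summit, chromosomes without X, removal of regions with a peak in all 5 p53 and SIRT1 lists, the middle 33.3% of the domain and a window of 5 kb. Python 3.11.15, numpy 2.4.6, pandas 2.3.3, SciPy 1.17.1 and matplotlib 3.10.9 were used.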

Additional observations from a re-analysis of the deposited data

Results flagged for a closer look

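Chromosome Y was outside the comparison. The untreated EZH2 list had 190 peaks on it, against 0 in the H3K27me3 list of untreated cells, and was flagged because these peaks lie in data the comparison did not use. The nigericin EZH2 list had 74, the p53 list 190, the H3K27ac list 22 and the SIRT1 lists 83 to 421. Away from the distal end of Y lay only 3 of these H3K27ac peaks and 38 to 405 of the SIRT1 peaks. Of the untreated EZH2, nigericin EZH2 and p53 peaks, 190, 74 and 187 lay away from that end. No input has a peak list here, so a control level could not be given.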

How the results depend on the processing

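With 1 library per list, depth and the EZH2 threshold limit every count of domains without EZH2. Each of 8 results was recomputed under the alternatives, and 36 of 76 values stayed within the interval of the main value, or within 1.5 times it for ratios and shares of length, while 40 moved. With EZH2 q of at most 0.05, 85.8% of summits lay in domains (main 41.7%), 2.01% of domains held EZH2 (main 4.34%), 70.7% of summits were in the middle 50% (main 66.4%), 78.3% of wide domains had none (main 63.9%), 14.4% of marked genes had EZH2 (main 26.4%) and the widest class had 78.8 times the density of the narrowest (main 11.3). At −log10 q of at least 5 these were 98.1%, 0.655%, 70.1%, 91.5% and 4.96%, the width ratio was 22.9 (main 13.2), and the density ratio had no value because no summit lay in the narrowest class. H3K27me3 peaks of −log10 q of at least 5 gave 39.1% of summits inside, 10.5% of domains with EZH2, a width ratio of 5.51, a density ratio of 5.74, 54.5% of wide domains without and 34.9% of marked genes. Unjoined peaks gave 2.72% with EZH2, 59.8% central, ratios of 7.9 and 24.5, and 48.4% of wide ones without. A gap of 3 kb gave 42.7% inside, 8.49% with EZH2, a density ratio of 4.29 and 69.3% of wide domains without. Overlap of the EZH2 peak in place of its summit gave a density ratio of 7.15 and gives no position. Without X, 5.66% of domains held EZH2, 54.3% of wide ones had none and 29.1% of marked genes had EZH2. The middle 33.3% held 48% of summits, and a 5 kb window gave 27.9% of genes. Of 2 alternatives chosen after seeing the data, leaving out the 5 domains with 20 or more summits gave 40.6% inside, and dropping X with q of at most 0.05 gave 86.2% inside, 2.64% with EZH2, 70.7% central, a density ratio of 80.7, 72.4% of wide domains without and 15.8% of genes. The share of length without EZH2 ranged from 66.7% to 93.9% (main 75.7%). Removing regions with a peak in all 5 p53 and SIRT1 lists touched 4 EZH2 and 2 H3K27me3 peaks. The gene share uses no domains, so their alternatives do not apply to it. No paired analysis was possible because each group has 1 library. Both ratios stayed above 1 in all alternatives that gave a value.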
